A study of Mus musculus with 14 samples.

Results

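Dense clusters of RARα peaks and copies of repeat sequence along the chromosome arms of 266-6 cells were examined in 5 peak lists. They were chosen from the positions of the peaks themselves. Peaks on chromosomes 1 to 19, X and Y beyond the first 3.3 Mb were merged into regions where they overlapped by 1 bp or more, and regions were linked into chains where the gap between neighbours was at most 100 kb. Chains of 3 or more regions were kept, together with every peak in 5 listed repeat intervals on chromosomes 2, 6, 9, 14 and 17. This gave 129 of the 551 regions of the series and 296 of its 1529 peaks. Of these, 122 regions with 261 peaks formed 16 chains on 9 chromosomes, and 7 regions with 35 peaks lay in the listed intervals. The other 262 regions of the arms, with 654 peaks, served for comparison. Since peak positions chose the members, everything about where they lie and how near their neighbours are is a description.

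266-6 is a cultured line derived from a mouse pancreatic acinar tumour, and every group used it. All groups had 24 h in stripped medium, then 24 h with ligand or vehicle, and 9 cycles of library amplification. The 14 samples were 3 given the vehicle DMSO, 2 given AM580, 3 given CD3254, 3 given AM+CD and 3 given 9-cis retinoic acid. What AM+CD stands for was not spelled out, and doses were not given in the sources used here. Labels of a treatment's replicates all name 1 peak list, so each treatment has 1 list and no difference between lists has a replicate check. Peak names in every list open with the treatment's abbreviation (NL with DMSO) and a 1, so a list may stand for replicate 1 only or for several replicates. Whether separate cultures stand behind the replicates was not given in the sources used here. Peak lists hold no expression, so the acinar label could not be checked against marker genes.

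CUT&RUN cuts DNA around an antibody-bound protein and sequences the released fragments. The target, retinoic acid receptor alpha (RARα), binds hormone response elements paired with a retinoid X receptor (RXR). AM580 is a synthetic agonist selective for RARα, CD3254 is a synthetic RXR agonist, and 9-cis retinoic acid activates both receptor families. Satellite arrays, ribosomal DNA, nuclear copies of mitochondrial DNA and young segmental duplications exist in many near-identical copies, some of which a reference genome collapses or leaves out. Reads from such copies cannot be assigned to 1 place with certainty, and they pile up where few of the copies are represented. The authors' treatment of reads with several matches was not given in the sources used here.

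Sequences of the regions themselves were not used here, since no genome was read; promoters at or near chain regions are shown in their place. In 3 genes a member region covered part of the 250 bases before an annotated transcription start, taken from RefSeq on GRCm38.p6, the assembly that mm10 names. They are written 5′ to 3′ in the direction of the gene, with the bases under the region in capitals. Gm9758 is on the minus strand (chr5:14914890-14915139, 189 bases under a region of the CD3254 list), Gm40369 on the plus strand (chr6:47652651-47652900, 50 bases under a region of the DMSO, AM580 and CD3254 lists) and Duxf3 on the minus strand (chr10:58233090-58233339, 13 bases under a region of the CD3254 list).
Gm9758: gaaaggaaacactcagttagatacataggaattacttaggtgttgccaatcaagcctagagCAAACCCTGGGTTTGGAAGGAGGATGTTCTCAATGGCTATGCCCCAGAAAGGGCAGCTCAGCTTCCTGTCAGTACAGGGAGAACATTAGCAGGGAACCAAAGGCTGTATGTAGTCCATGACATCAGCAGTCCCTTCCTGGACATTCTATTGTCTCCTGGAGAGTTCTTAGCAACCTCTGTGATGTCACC
Gm40369: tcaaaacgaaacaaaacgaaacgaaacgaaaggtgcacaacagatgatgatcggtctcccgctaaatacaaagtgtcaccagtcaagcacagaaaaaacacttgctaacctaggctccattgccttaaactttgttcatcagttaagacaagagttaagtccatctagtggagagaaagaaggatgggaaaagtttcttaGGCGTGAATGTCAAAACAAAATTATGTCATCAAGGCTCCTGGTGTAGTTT
Duxf3: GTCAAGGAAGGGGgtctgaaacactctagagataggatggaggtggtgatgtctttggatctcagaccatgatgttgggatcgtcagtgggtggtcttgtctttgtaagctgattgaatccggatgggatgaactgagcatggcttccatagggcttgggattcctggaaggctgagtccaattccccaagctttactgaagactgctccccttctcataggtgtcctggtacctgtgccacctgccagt

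Copies of 1 sequence recurred within the largest chains. The 250 bases before Gm15319 (chr8:20363203-20363452, minus strand) are identical, base for base, to those before the annotated starts of Gm21119 (chr8:20614677-20614926, plus strand) and 4930467E23Rik (chr8:19729326-19729575, plus strand). They are shown without capitals, since no base differs. The last 2 of these starts lie inside the listed spans of their own genes. On chromosome 5 the bases before Gm17019 (chr5:15033008-15033257, minus strand) are set against those before Speer4e (chr5:14938476-14938725, minus strand). Capitals mark the 8 bases at which Gm17019 differs from Speer4e.
Gm15319: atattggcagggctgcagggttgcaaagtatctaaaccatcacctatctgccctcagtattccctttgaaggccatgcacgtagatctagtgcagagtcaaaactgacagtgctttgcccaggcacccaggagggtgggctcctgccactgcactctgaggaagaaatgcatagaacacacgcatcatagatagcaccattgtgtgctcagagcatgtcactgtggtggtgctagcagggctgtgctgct
Speer4e: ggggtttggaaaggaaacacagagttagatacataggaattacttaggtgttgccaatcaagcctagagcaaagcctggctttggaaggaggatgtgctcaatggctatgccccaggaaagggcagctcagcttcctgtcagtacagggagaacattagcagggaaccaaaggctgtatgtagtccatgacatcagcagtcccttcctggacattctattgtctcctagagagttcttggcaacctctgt
Gm17019: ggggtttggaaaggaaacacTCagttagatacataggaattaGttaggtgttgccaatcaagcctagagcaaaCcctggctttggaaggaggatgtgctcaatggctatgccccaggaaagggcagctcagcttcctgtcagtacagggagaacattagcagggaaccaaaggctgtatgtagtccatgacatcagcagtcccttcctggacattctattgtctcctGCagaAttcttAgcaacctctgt

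These identical or near-identical copies stood at different distances from a member region and were accompanied by peaks of different lists. The start of 4930467E23Rik was 1390 bp from a region with DMSO, AM580 and CD3254 peaks, that of Gm21119 was 1783 bp from a region with AM580, CD3254 and AM+CD peaks, and that of Gm15319 was 8026 bp from a region with an AM580 peak alone. Speer4e lay 1992 bp and Gm17019 5282 bp from regions listed with CD3254 alone. On chromosome 6 the 250 bases before Gm40367, Gm36327 and Gm40364 were also identical to each other. Of 29 promoters (250 bases before to 50 after a start, of 28 genes) inside chains, 16 shared an exact stretch of 100 bases on either strand with the promoter of another gene (55.2%, 95% Wilson interval 37.5 to 71.6), against 4.65% of the 32851 promoters of the table. The 16 were 8 of 9 on chromosome 5, 5 of 7 on chromosome 6 and 3 of 6 on chromosome 8. The 6-letter motif AGGTCA, the variant AGTTCA, the variant GGGTCA and the variant GGTTCA, which RAR and RXR can bind as paired repeats, were searched on both strands of the 250 bases before the start. They were found in 3 of the 29 (10.3%, 3.58 to 26.4) and in 38.6% of all promoters. Duxf3 held 1, AGTTCA, on the strand opposite the gene, with its first base at position 130 counted from the 5′ end of the printed sequence. The promoters of 1 copied family are not independent, and a match or its lack is a description of these letters only.

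The chains were of unequal size, from 3 to 32 regions with a median of 4. The distance between the centres of neighbouring regions had a median of 7981 bp (616 to 95139). At the threshold of 3 regions, 7 chains had exactly 3 and 10 pairs of regions were left out. The pair nearest together, on chromosome 16 (3349514 to 3352045), had peaks in all 5 lists at both regions and 493 bp between them. Among chains of 3, the one on chromosome 17 (13550680 to 13655299) was also in every list at each region, while the one on chromosome 8 at 55498642 to 55519494 was in no DMSO, 9-cis retinoic acid or AM580 list. For 5 chains the RefSeq table gave no protein-coding gene and for 3 no gene at all.

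The 4 chains between 19703215 and 20682577 on chromosome 8 held 55 regions and 92 peaks, 42.6% of all member regions. A peak stood in 51 of the 55 with CD3254, 20 with AM580, 12 with DMSO, 7 with AM+CD and 2 with 9-cis retinoic acid. Of the 55, 29 were listed with CD3254 alone and 2 in all 5 lists. Of the 262 other arm regions, 79 were listed with CD3254 alone and 65 in all 5, as were 28.7% of all regions of the series. CD3254 peaks also helped to link these chains, and without that list the chain of 32 regions had 15. The 18 genes in these chains are mostly gene models and pseudogenes with no assigned function, among them 2610005L07Rik, 6820431F20Rik, Gm15319, Gm40469 and 9530057J20Rik. The 2 regions found in every list were neighbours at 20328588 to 20329373 and 20330784 to 20331413. At the first, the summit pileup, which is the number of fragments over the peak's highest base, was 178 with CD3254, 175 with AM+CD, 97 with DMSO, 72 with AM580 and 48 with 9-cis retinoic acid. At the second it was 125, 108, 74, 62 and 29 in the same order. The pileup was highest with CD3254 and lowest with 9-cis retinoic acid at both places. The background coverage of the calls, given below, has the same order. Divided by that coverage, 9-cis retinoic acid was highest and AM580 lowest at the first place, with a ratio of 1.21. At the second place AM580 was highest and AM+CD lowest, with a ratio of 1.24.

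The 2 chains on chromosome 5, at 14914439 to 15054880 and 15462575 to 15712262, held 29 regions and 50 peaks (22.5% of member regions). They run through the Speer family, testis-expressed genes of glutamate-rich proteins that exist in many rodent copies. CD3254 had a peak in 28 of the 29 regions, DMSO in 10, AM580 in 9, AM+CD in 2 and 9-cis retinoic acid in 1. No region was in every list, against 28.7% of all regions of the series. CD3254 peaks helped to link these chains too, and without that list they had 9 and 5 regions. The single 9-cis retinoic acid region, at 15680515 to 15681324, met Speer4cos and had pileups of 59 with CD3254, 37 with DMSO, 39 with AM580 and 23 with 9-cis retinoic acid. Of 15 Speer genes in the table, 5 lay in these chains (Speer4c, Speer4cos, Speer4d, Speer4e and Speer8-ps1) and a member region met the span of 4.

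**Figure D1:**
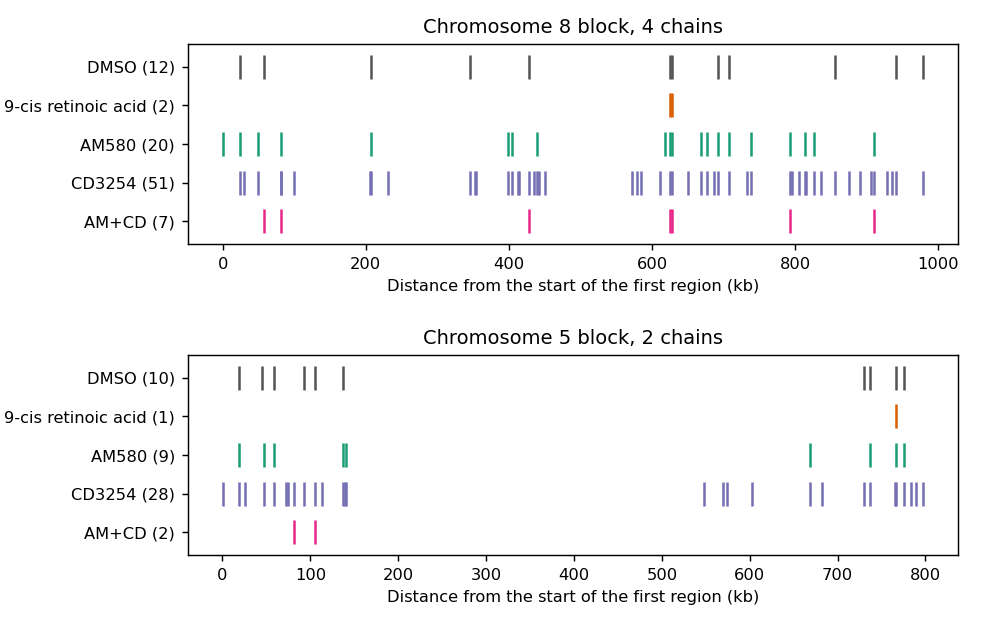
Positions of member regions in the chromosome 8 block (55 regions, top) and the chromosome 5 block (29 regions, bottom), in kb from the start of the first region. Each tick is a region with a peak in that list, with the number of regions in parentheses: CD3254 has 51 and 28, and 9-cis retinoic acid has 2 and 1.

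The chain on chromosome 10 (58221687 to 58239725) held 6 regions around LOC100504180, Duxf3 and Gm4981. Duxf3 is a double homeobox gene of a tandem array, and its product activates early embryonic genes. No DMSO and no 9-cis retinoic acid peak was listed in this chain. CD3254 had a peak at all 6 regions, AM580 at 4 and AM+CD at 1. The region within Duxf3 (58231794 to 58232575) had pileups of 62 with CD3254, 68 with AM+CD and 24 with AM580, and the region over the first 13 of its printed bases (58233327 to 58233954) had 53, with CD3254 alone. The 6 regions had CD3254 pileups of 53 to 75. The AM580 list holds 4 of the 5 peak numbers of its run here, and the CD3254 list 6 of 8. With no kept peak here, the DMSO and 9-cis retinoic acid lists have no such run. Over all member regions, a number was missing at 70 of 78 without DMSO and at 101 of 106 without 9-cis retinoic acid. Absence and removal were not told apart for this chain.

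In contrast, 2 chains had a peak in every list at every region. Chromosome 13 (119596687 to 119602990) held 4 regions, all within the span of Tmem267, a gene for a transmembrane protein, with centres 1611 to 2096 bp apart. The strongest, at 119598230 to 119599204, had pileups of 548 with CD3254, 518 with AM+CD, 285 with DMSO, 246 with AM580 and 165 with 9-cis retinoic acid. The local background that MACS2 estimated around these summits was 25.9 to 46.4 times the background of the whole call, and folds over it were 2.71 to 7.46. The chromosome 17 chain had 3 regions, the first of which met the long noncoding RNA gene 2700054A10Rik (13550680 to 13553165). Its pileups were 1133 with CD3254, 1052 with AM+CD, 524 with DMSO, 490 with AM580 and 299 with 9-cis retinoic acid, the highest of any chain region in each list. At its last region (13654614 to 13655299) they were 82, 89, 60, 33 and 33 in the same order.

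The chromosome 2 chain at 181917359 to 182013201 was close to these, with 5 of 6 regions in every list. Its last region (182012724 to 182013201) had the highest fold of any chain region in 4 of the 5 lists, at 24.3 with CD3254, 22.0 with DMSO, 26.2 with AM580 and 18.2 with 9-cis retinoic acid, each over that list's own local background. With AM+CD its fold was 22.6, and the Y chromosome region at 90768841 to 90769394 had 22.7. That Y region was present in all 5 lists, with pileups of 108 with CD3254, 86 with AM+CD, 53 with DMSO, 33 with AM580 and 28 with 9-cis retinoic acid. The other 2 regions of the Y chain, near Gm52481, were in the CD3254 list alone.

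The remaining chains were small. On chromosome 6 (47652851 to 47766243, 3 regions around Gm40369 and Rn4.5s) 2 regions were shared by DMSO, AM580 and CD3254. On chromosome 7, 4 regions at 64073428 to 64086744 and 3 at 64475642 to 64489083 had no gene in their span. On chromosome 2, 3 regions at 22738194 to 22745231 lay near Apbb1ip, an adaptor gene of integrin activation. Its middle region (22739271 to 22739995) was in all lists, with pileups of 170 with CD3254, 174 with AM+CD, 108 with DMSO, 78 with AM580 and 64 with 9-cis retinoic acid.

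**Figure D2:**
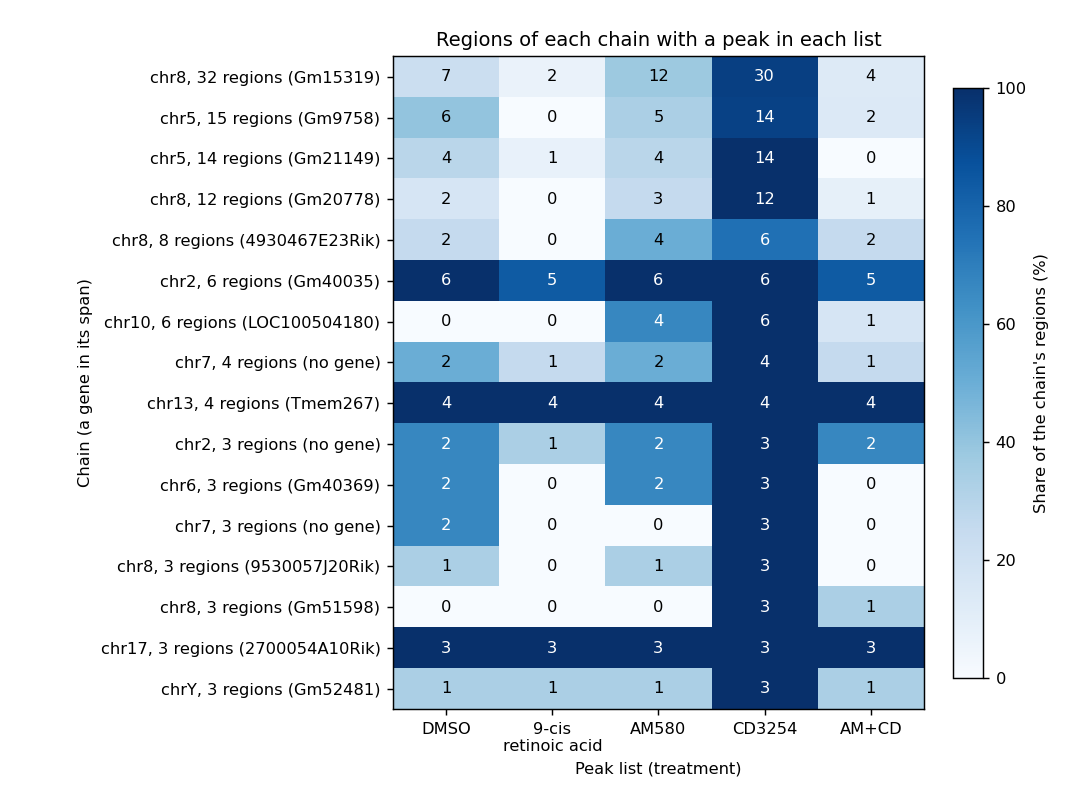
Number of regions of each of the 16 chains with a peak in each list (printed in the cell), shaded by the share of the chain's regions in percent. The chromosome 13 and 17 chains are full in every list, and the chromosome 10 chain has 0 regions with DMSO and with 9-cis retinoic acid and 6 with CD3254.

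The listed repeat intervals had far higher pileups than the chains. The repeat on chromosome 2 (98666269 to 98667381) reached 66876 with CD3254, 62743 with AM+CD, 57247 with DMSO, 51714 with AM580 and 45851 with 9-cis retinoic acid. The repeat on chromosome 14 (19416871 to 19419382) reached 23559, 20811, 18127, 14996 and 12879 in that order, and the one on chromosome 9 (35305222 to 35305678, in the span of Gm33838) 18564, 16464, 14159, 11958 and 9136. The repeat on chromosome 6 (103649049 to 103649414, within Chl1, the gene of a neural cell adhesion molecule) reached 9232, 8452, 7474, 7144 and 5349. The ribosomal DNA copy on chromosome 17 (39843022 to 39848796, over Rn18s-rs5 and AY036118) was much lower, at 334, 345, 203, 241 and 102. It was the single listed repeat with its highest pileup with AM+CD and not CD3254.

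The fold ranked these repeats differently from the pileup. In every list the chromosome 6 repeat had the highest fold of all members, 38.8 with DMSO and 32.1 to 42.6 with the ligands, and the chromosome 9 repeat was next at 30.3 to 38.8. The chromosome 2 repeat, with the highest pileups, had folds of 15.1 to 18.4, since its local background was 1710 to 5598 times that of the call. The ribosomal copy had the lowest folds, 2.33 to 2.60. A second region in the chromosome 2 interval (98662264 to 98662840) and one in the chromosome 14 interval (19415735 to 19416309) had no 9-cis retinoic acid peak, with DMSO pileups of 11031 and 3331.

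Where members had a peak in every list, the pileups of chain regions moved with the background coverage of the call while those of the listed repeats moved less. The background coverage, in fragments per base, was 0.544 for 9-cis retinoic acid, 0.985 for AM580, 1.32 for DMSO, 2.13 for AM+CD and 2.36 for CD3254, a ratio of 4.34 between the ends. The ratio of the highest to the lowest pileup across lists had a median of 3.59 (2.65 to 5.20) over 17 chain regions, 3.85 over 65 other regions and 1.83 (1.46 to 3.38) over 5 listed repeats. Divided by the background coverage, the pileups had median ratios of 1.44, 1.49 and 2.42. The 9-cis retinoic acid list had the lowest pileup at all 17 chain regions, at 1 of them tied with AM580, and at all 5 repeats. It also had the lowest at 62 of the 65 other regions. After division it had the highest value at 14 of the 17 chain regions, at 4 of the 5 repeats and at 28 of the 65 other regions. The divided values depend on the estimate of the background, whose part in these orders was not tested.

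**Figure D3:**
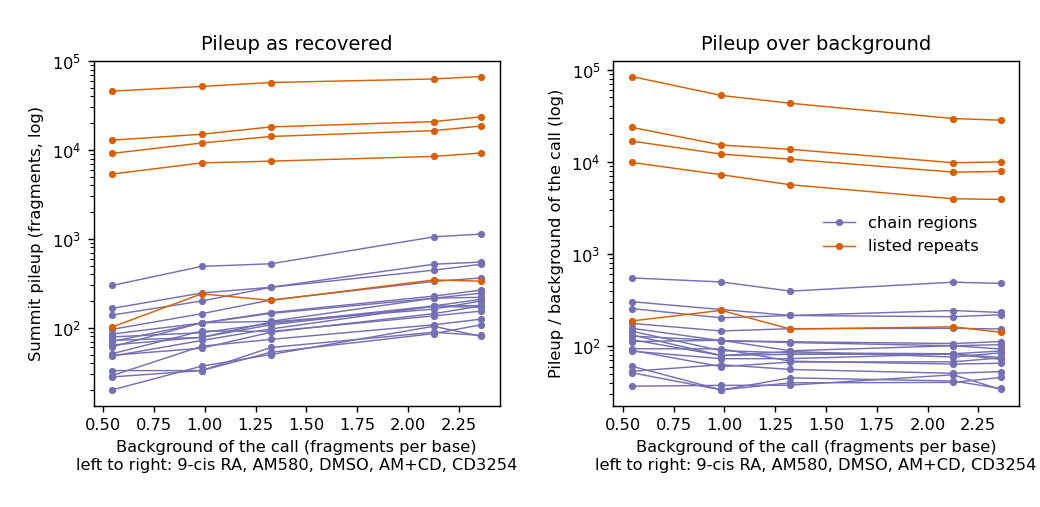
Summit pileup in fragments (left, log scale) and the same divided by the background of the call (right, log scale) against that background, for the 17 chain regions (violet) and 5 listed repeats (orange) in all 5 lists; a line joins the values of 1 region. Chain pileups rise from left to right with a median ratio of 3.59, and 4 of the 5 repeat lines are highest at the left of the right panel.

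Members made up 52 of 286 DMSO peaks (18.2%, 14.1 to 23.1), 25 of 200 with 9-cis retinoic acid (12.5%, 8.61 to 17.8) and 61 of 323 with AM580 (18.9%, 14.99 to 23.5). With CD3254 they were 124 of 493 (25.2%, 21.5 to 29.2) and with AM+CD 34 of 227 (14.98%, 10.9 to 20.2). Intervals here and below are 95% Wilson intervals that cover counting error only, and neighbouring regions are not independent. CD3254 had both the highest background coverage and the most member peaks, and 9-cis retinoic acid had the lowest of both, but AM+CD, with the second highest coverage, had fewer member peaks than DMSO or AM580. Among the 200 peaks of highest −log10 q of each list, with members chosen anew, CD3254 had the lowest member share, 7.50% (15 peaks). DMSO then had the highest, 10.0% (20 peaks). That cut kept all 200 peaks of the 9-cis retinoic acid list but 200 of 493 with CD3254. The counts lay too close together to order the lists. The lists also kept different shares of the peak numbers of their calls: 55.1% with CD3254, 32.4% with AM+CD, 63.1% with DMSO, 44.0% with AM580 and 75.5% with 9-cis retinoic acid. The part of coverage and of removed peaks in the member shares was not tested. These lists also chose the members, and 55 of the 129 member regions were in the CD3254 list alone, so how often each list takes part is partly set by the choice. Intervals for shares of members and for differences from the other arm regions, here and below, therefore describe these counts and do not measure a difference between kinds of region.

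Across lists, 22 of the 129 member regions had a peak in all 5 (17.1%, 11.5 to 24.5), against 28.7% of all regions of the series. The share was 30.2% (19 of 63) of member regions chosen without the CD3254 list, over the other 4 lists. It was 60.0% (12 of 20) when only the 200 peaks of highest −log10 q of each list were used. Peaks in the listed repeat intervals need no neighbours to be kept under that cut, and their part in it was not counted. The share over all regions was not computed under these settings, so neither value can be set against the 28.7%. In 1 list alone stood 59 (45.7%, 37.4 to 54.3), against 39.7% of all regions. Set against the other arm regions, the shares differed by -7.75 percentage points (Newcombe 95% interval -15.6 to 1.10) and -2.74 points (-13.0 to 7.74), and both intervals include 0. The regions in 1 list were 55 with CD3254, 3 with AM580 and 1 with DMSO. Of the 262 other arm regions, 79 were listed with CD3254 alone and 19 with AM580 alone. No member region was listed with 9-cis retinoic acid alone or with AM+CD alone, where the other arm regions had 24 and 5. The next most frequent patterns were AM580 with CD3254 (14 regions), DMSO with both of these (13) and DMSO with CD3254 (8).

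The member regions of the CD3254 list alone were weaker than those shared by all lists, and they differed in their surroundings from other CD3254 regions. At the 55 chain regions with CD3254 alone the median CD3254 pileup was 37 (15 to 105), at a median local background of 2.72 times that of the call. At the 79 other arm regions with CD3254 alone it was 23 (12 to 200) at a local background of 1.10 times. Their median folds were 4.89 and 5.95. At the 17 chain regions in all lists the median CD3254 pileup was 200 (80 to 1133) and the local background 14.9 times. The pileups of chain regions in 1 and in all lists thus overlapped between 80 and 105.

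**Figure D4:**
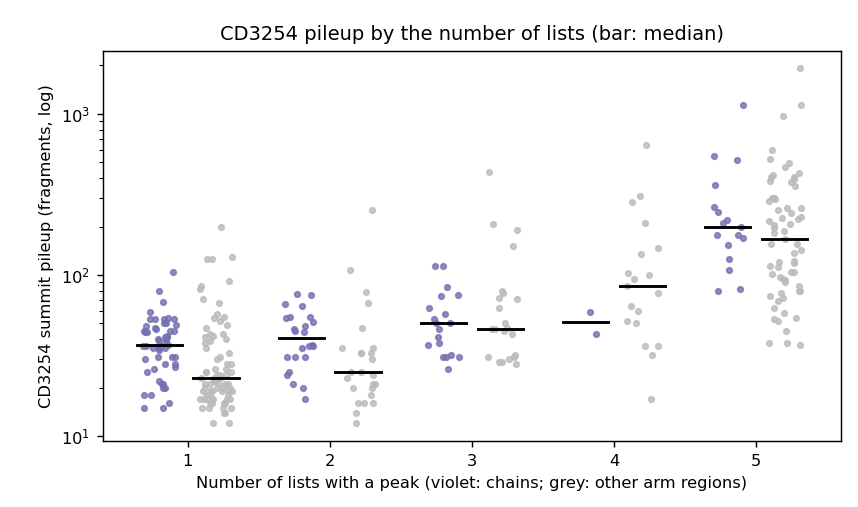
CD3254 summit pileup (fragments, log scale) of each region with a CD3254 peak, by the number of lists with a peak there, for chain regions (violet) and other arm regions (grey); bars are medians. The chain medians are 37 for 1 list, 40.5 for 2, 50 for 3, 51 for 4 (2 regions) and 200 for 5.

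The local background was higher in chains than at other arm regions in each list. Its median over chain peaks was 3.07 to 18.0 times the call's background across the lists, against 1.46 to 2.16 over the other arm peaks. Over 2 times the call's background lay 70.2% of member peaks with CD3254, 75.0% with DMSO, 78.7% with AM580, 79.4% with AM+CD and 100% with 9-cis retinoic acid, against 32.4 to 54.6% of the others. Such an estimate may take in fragments of neighbouring peaks, depending on the control, which was not given in the sources used here. Near neighbours chose the members, so these values are a description. Median folds over that background were 5.37 to 7.66 for members and 9.90 to 16.7 for other arm peaks, while median pileups were 33 to 168 and 25 to 100.5. Member widths had medians of 392 to 600 bp, against 389.5 to 466 bp.

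**Figure D5:**
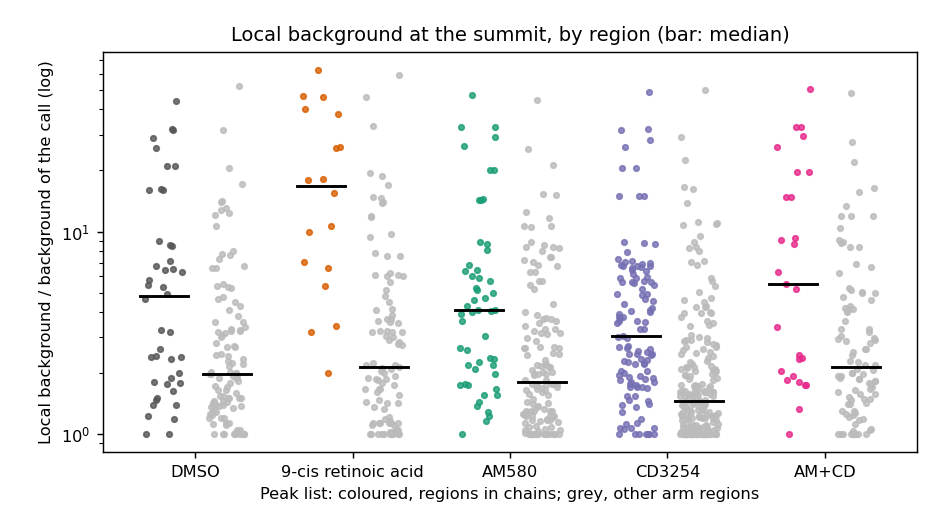
Local background at the summit divided by the background of the call (log scale) for each region in each list, chain regions in colour and other arm regions in grey; bars are medians. Over peaks, the chain medians lie between 3.07 (CD3254) and 18.0 (9-cis retinoic acid) and the others between 1.46 and 2.16. The bars take 1 peak per region and list, so a bar can differ from the median over peaks.

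Summit positions were compared where lists shared a member region. Of 70 member regions in more than 1 list, 51 had all summits within 100 bp (72.9%, 61.5 to 81.9), against 105 of 135 other arm regions (77.8%, 70.1 to 84.0). The summits of 1 region lay up to 538 bp apart in chains, up to 4576 bp at the ribosomal DNA copy and up to 1093 bp at the other arm regions. At regions in all 5 lists the median range of summit positions was 47.5 bp over 22 members and 48 bp over 65 others. The relative local background at these regions had a median ratio of highest to lowest across lists of 1.46 for members and 1.44 for the others.

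9-cis retinoic acid, which activates both receptor families, was compared with DMSO first. All 25 of its member peaks met a DMSO peak (100%, 86.7 to 100), so 0 member peaks were specific to it, against 13.5% of its whole list without a DMSO peak. Among its other arm peaks 70 of 97 met DMSO (72.2%), a difference of 27.8 points (Newcombe interval 12.3 to 37.5) between sets that these peaks helped to choose. In the other direction, 28 of 52 DMSO member peaks had no 9-cis retinoic acid peak, against 39.9% of the whole DMSO list. They were led by the listed repeat region at 98662264 on chromosome 2 and the chromosome 14 region at 19415735. The next were the region at the start of Gm40369 (chromosome 6, 47652851 to 47653281, DMSO pileup 41), a chromosome 7 region (64086436 to 64086744, 63) and a chromosome 2 region (181929045 to 181929434, 91, 17021 bp from Gm40035). The 28 had DMSO pileups from 12 to 11031, with a median of 28.

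AM580, the RARα agonist, had 21 of 61 member peaks without DMSO, against 23.2% of its whole list. The 40 that met DMSO were 65.6% (53.0 to 76.3), and 70.3% of its other arm peaks did, a difference of -4.72 points (-19.1 to 8.68). Leading the 21 was a region on chromosome 8 over the pseudogene Gm10060 (19784486 to 19785102, pileup 31, fold 10.2). It was followed by one in LOC100504180 on chromosome 10 (58223915 to 58224428, 38, 5.62). Others lay 1260 bp from Gm21119 (chromosome 8, 20612772 to 20613144, 21, 7.16), on chromosome 8 at 20495591 to 20496039 (20, 6.64) and in Gm30613 on chromosome 5 (15582340 to 15582750, 26, 5.45). All 5 also had a CD3254 peak. In return 12 of 52 DMSO member peaks had no AM580 peak, against 11.9% of the DMSO list. These included a region 9039 bp from Gm17019 (chromosome 5, 15019394 to 15019911, DMSO pileup 38) and one in the pseudogene Gm20778 (chromosome 8, 20049106 to 20049492, 23). Another was in Speer8-ps1 (chromosome 5, 14959417 to 14959726, 38). The others of the first 5 were on chromosome 5 at 15006518 to 15008291 (48) and 15643620 to 15644476 (39).

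CD3254, the RXR agonist, had 75 of 124 member peaks without DMSO, against 43.4% of its whole list. The 49 that met DMSO were 39.5% (31.4 to 48.3), against 52.4% of its other arm peaks, a difference of -12.9 points (-23.4 to -1.79). With 55 member regions in the CD3254 list alone, the choice of members partly sets this share, and it was 100% (15 of 15) among the 200 peaks of highest −log10 q of each list. The CD3254 list has 7 peaks in the listed repeat intervals, which are kept whatever their neighbours. Their part in the 15 was not counted. Highest by the authors' −log10 q (42.6) was a chromosome 7 region with a pileup of 105 and a fold of 5.92 (64080327 to 64080580). Next was a chromosome 2 region 17499 bp from Apbb1ip (22738194 to 22738472, pileup 80, −log10 q 38.3). Both were in no other list. Further regions met Gm9919 on chromosome 10 (58239150 to 58239725, pileup 55), lay 18850 bp from Gm51598 on chromosome 8 (55519219 to 55519494, 45) and 21277 bp from Gm17019 on chromosome 5 (15054293 to 15054880, 76). Just 2 of 52 DMSO member peaks had no CD3254 peak, against 0.699% of the DMSO list. They were the Speer8-ps1 region named above and a chromosome 8 region 6544 bp from 4930467E23Rik (19760147 to 19760666, DMSO pileup 21).

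The CD3254 call had the highest coverage, and this bears on which of its regions another list could hold. The scaling below used CD3254 values at regions chosen for their CD3254 peak, not the local background of the other list. It cannot show what another list would have held, and the part of coverage was not tested. Scaled to the DMSO coverage, 65 of the 75 CD3254 member regions without DMSO (86.7%, 77.2 to 92.6) would still exceed the lowest −log10 p of the DMSO list. Lowering each pileup to its 95% lower bound left 28. Scaled to 9-cis retinoic acid coverage it was 38 of 101 (37.6%), to AM580 53 of 67 (79.1%) and to AM+CD 90 of 91 (98.9%). At the lower bounds these were 10, 16 and 63. Other arm regions of the CD3254 list gave 79 of 100 for DMSO (79%, 70.0 to 85.8), 72 of 140 for 9-cis retinoic acid (51.4%), 66 of 95 for AM580 (69.5%) and 116 of 119 for AM+CD (97.5%). Their lower bounds left 36, 49, 28 and 67 in the same order.

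The numbers in the peak names bear on it as well, since a gap in the numbering marks peaks removed after the call. At 8 of 78 member regions without a DMSO peak (10.3%) no DMSO number is missing, so nothing had been called and removed there. The same held at 55 of 69 regions without AM580 (79.7%, 68.8 to 87.5), at 5 of 106 without 9-cis retinoic acid (4.72%), at 2 of 95 without AM+CD (2.11%) and at 3 of 5 without CD3254. Among other arm regions it held at 34 of 152 without DMSO (22.4%), 18 of 124 without AM580 (14.5%), 80 of 165 without 9-cis retinoic acid (48.5%), 8 of 164 without AM+CD (4.88%) and 4 of 52 without CD3254 (7.69%). Counted by region, the share was higher at members with AM580 and, over just 5 member regions, with CD3254. It was higher at the other arm regions with DMSO, 9-cis retinoic acid and AM+CD. However, a missing number belongs to the whole stretch between neighbouring kept peaks of a list, so regions in the same stretch share their outcome. In the chromosome 8 block of 55 regions, for example, the 9-cis retinoic acid list kept only numbers 168 and 169. These shares and the interval are therefore a description and cannot compare members with other arm regions. In the chromosome 8 block the AM580 list kept 20 of 21 numbers, DMSO 12 of 32, CD3254 51 of 62 and AM+CD 7 of 50. In the chromosome 5 block AM580 kept 9 of 9, DMSO 10 of 21 and CD3254 28 of 34. At most regions without a DMSO, 9-cis retinoic acid or AM+CD peak, absence and removal therefore cannot be told apart.

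AM+CD had 6 of 34 member peaks without DMSO, against 10.6% of its whole list. The 28 that met DMSO were 82.4% (66.5 to 91.7), against 85.7% of its other arm peaks, a difference of -3.36 points (-20.2 to 9.09). The 6 were led by the Duxf3 region (58231794 to 58232575, fold 4.79), the region 18850 bp from Gm51598 (pileup 38) and the Gm10060 region (36). The next were the chromosome 8 region at 20495591 (38) and one 16554 bp from Gm10354 on chromosome 5 (14995509 to 14996354, 35). Of 52 DMSO member peaks 23 had no AM+CD peak, against 28% of the DMSO list. Those of highest −log10 q were the Gm40369 region, the chromosome 7 region at 64086436, the chromosome 2 region at 181929045, one in 4930467E23Rik (chromosome 8, 19727855 to 19728186, DMSO pileup 33) and the chromosome 5 region at 15006518. The 4 comparisons with DMSO share the same DMSO list.

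The ligands were also set against each other at the matched 24 h. Of 34 AM+CD member peaks, 29 met an AM580 peak (85.3%, 69.9 to 93.6), where 8.81% of the whole AM+CD list did not. With CD3254 33 met (97.1%, 85.1 to 99.5), where 3.52% of the list did not, and with 9-cis retinoic acid 22 met (64.7%, 47.9 to 78.5), where 29.1% did not. Of 61 AM580 member peaks 30 met AM+CD (49.2%, 37.1 to 61.4, list background without 35.3%) and 58 met CD3254 (95.1%, 86.5 to 98.3, list background without 9.29%). Of 124 CD3254 member peaks 33 met AM+CD (26.6%, 19.6 to 35.0, list background without 55.2%) and 57 met AM580 (46.0%, 37.4 to 54.7, list background without 40.6%). All but 1 of 25 9-cis retinoic acid member peaks met AM+CD (96.0%, 80.5 to 99.3, list background without 17.5%). At the 57 member regions held with both AM580 and CD3254, AM+CD had a peak at 29 and none at 28 (49.1%, 36.6 to 61.7), of which 14 had a DMSO peak. AM+CD had none at 29.6% of all regions of the series with both, and at 32 of 115 such other arm regions (27.8%, 20.5 to 36.6).

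Chains could also be built without the CD3254 list, so that its peaks took no part in the choice. This left 9 chains and 63 member regions with the listed repeats. CD3254 had a peak at 58 of the 63 (92.1%, 82.7 to 96.6), and at 144 of 196 other arm regions (73.5%, 66.9 to 79.2). The 2 chromosome 5 chains then had 9 and 5 regions and the largest chromosome 8 chain 15.

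A gene span held 53 of 129 (41.1%, 33.0 to 49.7), near the 43.1% of other arm regions, but a protein-coding span held 23 (17.8%, 12.2 to 25.3) against 90 of 262 (34.4%, 28.9 to 40.3). Within 50 kb of a protein-coding gene lay 78.3% of member and 69.8% of other arm regions. The chains held 57 genes, of which 28 were protein coding, 12 pseudogenes, 5 transcribed pseudogenes and 10 long noncoding RNA genes. Names of the form Gm and a number, which mark gene models without an assigned function, made up 41 of the 57 (71.9%, 59.2 to 81.9), against 43.6% of the 49943 genes on these chromosomes. Of the 31 genes that a member region met, 16 had such names (51.6%, 34.8 to 68.0) and 13 were protein coding (41.9%, against 43.8% of all genes), including Chl1 and Tmem267 among those with a named product.

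Within 50 kb of a member region were 0 of 28 retinoic acid receptor targets, 0 of 20 genes of retinoid metabolism, 0 of 26 RAR and RXR partners and co-regulators and 0 of 20 pancreatic acinar genes. Among all genes 103 of 49943 (0.206%) were that near, so fewer than 1 gene of each list would be near at that rate. Besides the 5 Speer genes, 1 of 4 Dux genes (Duxf3), 1 of 71 genes taken as ribosomal RNA by their names (Rn18s-rs5, which the table types as a pseudogene), 1 of 420 Zfp genes (Zfp786) and 1 of 1182 microRNA genes (Mir704) lay within 50 kb. Rn4.5s, which the table types as ribosomal RNA and that list does not hold, lay inside the chromosome 6 chain. There was none of 1428 olfactory receptor, 359 vomeronasal receptor, 71 defensin, 94 cytochrome P450 or 22 Mup genes, families that also stand in large genomic clusters.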

How the data were processed

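RARα CUT&RUN peaks of 5 treatments were analysed from the narrowPeak lists the authors deposited, 1 per treatment. The submitters' processing notes name build mm10 and, with no order, MACS2 2.2.7.1, Bowtie2 2.5.1, SAMtools 1.18, bedtools and FastQC. The order of these, the control, the q threshold and how duplicates and reads with several matches were handled were not given in the sources used here, nor was whether a list, whose peak names all carry a 1, holds replicate 1, pooled or combined replicates. Each deposited list gives positions, the summit, the authors' fold enrichment (a ratio over local background), the −log10 p and −log10 q of MACS2 and a score, which was not used. Folds and −log10 q values belong to their own list and only ranked or described peaks there. Library totals were not given in the sources used here, so background coverage served as depth.

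The summit pileup and local background of all 1529 peaks were recovered from the fold, taken as (pileup + 1) / (background + 1), and the −log10 p, taken as an upper Poisson tail. The largest relative error was 1.23e-05, under a tolerance of 0.0002. The lowest local background of a list was its background coverage. The calculation and the chaining were tested on simulated data. Shares have 95% Wilson intervals and differences Newcombe intervals, which treat the shares as independent. No test was made, since each treatment has 1 list. Starts are printed 1-based. Genes and promoters came from RefSeq tables of GRCm38.p6 (49943 genes, 21887 protein coding, and 32851 promoters); the table gave gene spans, so exons, introns and untranslated regions were not told apart. Python 3.11.15, numpy 2.4.6, pandas 2.3.3, scipy 1.17.1 and matplotlib 3.10.9 were used.

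Named were the listed repeats, the 10 chains with the most regions (chains of 3 tie for the last place, and all are given), for each ligand the 5 regions of highest −log10 q on either side of the comparison with DMSO, the 3 of highest fold in each list, and gene-list members near a region where 5 or fewer. Regions given for their presence in every list, for the 9-cis retinoic acid peak on chromosome 5 or beside a printed sequence were chosen after their values were seen. The members, the gene lists and the comparisons were chosen with earlier results of these data known.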

Additional observations from a re-analysis of the deposited data

How the results depend on the processing

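Of 115 values recomputed under 12 alternative settings, 93 stayed within the counting interval of the value reported and 22 moved. A chaining gap of 50 kb, peaks of −log10 q of 5 or more, an overlap of 50% of the shorter peak, placing a region by its midpoint and leaving out the 5 listed repeat intervals (added after seeing the data) moved none of the values they gave. With at least 5 regions a chain, 7 chains remained and members made up 12.2% of DMSO, 7% of 9-cis retinoic acid, 13.9% of AM580, 19.3% of CD3254 and 9.69% of AM+CD peaks. With the 200 peaks of highest −log10 q in each list, members made up 10.0% of DMSO, 9.00% of AM580, 7.50% of CD3254 and 9.50% of AM+CD peaks. Of the 20 member regions, 60.0% were then in all lists and 5.00% in 1. A DMSO peak was met by 94.4% of AM580, 100% of CD3254 and 94.7% of AM+CD member peaks. DMSO member peaks met 9-cis retinoic acid in 85.0%, CD3254 in 75.0% and AM+CD in 95%. AM+CD member peaks met CD3254 in 78.9%, and 9-cis retinoic acid ones met AM+CD in 100%. CD3254, with the highest member share over whole lists, had the lowest under this cut, with 15 member peaks against 20 with DMSO. Members were chosen anew, and the cut kept all 200 peaks of 9-cis retinoic acid but 200 of 493 with CD3254. These close counts do not order the lists. Leaving out 1 list at a time gave 9 to 16 chains and 17.2 to 30.2% of member regions in all remaining lists. Only leaving out the CD3254 list moved them, to 9 chains and 30.2%. No paired analysis was possible because each treatment has 1 list. The missing numbers and the coverage of the calls limit every statement that a list lacks a peak.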
